A study of Equus caballus with 8 samples.

Results

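MAP kinase phosphatases, Sprouty proteins and SPRED proteins form the feedback arm of growth factor signalling. Receptor tyrosine kinases such as the FGF receptors switch on RAS, and RAS drives the kinases RAF, MEK and ERK, while stress signals and TGF-β can drive the related kinases p38 and JNK. Active ERK induces transcription of genes whose products shut the cascade down again, so the transcripts of DUSP6, SPRY2 or SPRY4 are widely used as readouts of recent ERK activity. The phosphatases (DUSP genes) remove phosphates from the MAP kinases themselves. Sprouty proteins act near the receptor and RAS, and SPRED proteins bring the RAS inactivator neurofibromin to the membrane.

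The levels of 10 such genes were followed in equine BM-MSCs (mesenchymal stem cells of the bone marrow), stromal cells that were grown out of sternal marrow on plastic. They were chosen by gene symbol: DUSP1, DUSP4, DUSP5, DUSP6, DUSP10, SPRY1, SPRY2, SPRY4, SPRED1 and SPRED2. All 10 had a row among the 15266 named genes of the deposited table. Marrow of 4 horses, labelled D, J, L and W, was split between untreated cells and cells given 1 ng/ml human recombinant TGF-β2, with 1 library for each horse and condition. Per the labels, TGF-β2 was present from isolation until passage 3 or 4, whereas the study's methods give 3 passages of treatment. Per the same methods the medium of both groups also held basic fibroblast growth factor, a ligand that itself activates ERK. The study used adult Thoroughbreds and Thoroughbred crosses. The cells were primary, unsorted cultures from single donors. The comparison therefore asked how long exposure to TGF-β2, on top of a growth factor, changed the transcript levels of these inhibitors.

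Between 39184554 and 57228675 reads were counted per library, with the most in the untreated library of horse J. Levels are normalized counts, which correct for the depth of a library but not for transcript length, so they are compared between libraries and not between genes. Each of the 10 genes had at least 114 reads in every library, and all 10 passed the filter that left 14907 genes for testing. A gene was called when limma gave a Benjamini-Hochberg adjusted p under 0.05 over all tested genes together with an absolute log2 fold change over 1. Log2 fold changes and within-horse changes are on the log2(normalized count + 1) scale. Of the transcripts listed as a check of the labels, TGFBI and SKIL were called higher after treatment and SMAD7 and LTBP2 were not called. Of 8 stromal markers 7 had a row. Among them THY1 and CXCL12 fell (log2 fold changes of -2.21 and -5.57) and 5 were not called. ITGB1 and CD44, at 0.91 and 0.43, were the 2 markers with a positive log2 fold change. It was negative for the other 5, and the median of the 7 was -0.42. No row was present for the 3 epithelial markers, and CDH5, the endothelial marker with a row, stood at 6.09 to 23.8 normalized counts. In bulk RNA, fewer cells of a type and less RNA per cell cannot be told apart.

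Of the 10 genes, 1 was called, DUSP1, which was lower after TGF-β2. Of all tested genes 11.5% were called, 5.87% lower and 5.59% higher, so 1 of 10 was close to the share among genes in general. With the horse as a block, which compares treated with untreated cells within each horse, it was again DUSP1 alone, when 14.1% of all tested genes were called, 6.83% higher and 7.31% lower. On whole reads recovered from the normalized counts, edgeR called DUSP1 alone with and without the block (13.8% and 11.3% of all tested genes), as DESeq2 did without it (13.8%). The median log2 fold change of the 10 genes was -0.056, against 0.0055 for all tested genes. The 10 genes differed in direction. DUSP1, SPRY1, SPRY4 and SPRED1 were lower in all 4 horses and SPRED2 was slightly higher in all 4. DUSP4, DUSP5, DUSP6, DUSP10 and SPRY2 differed in direction between horses. The same direction in all 4 horses was thus seen in 5 of the 10 genes, against 51.9% of all tested genes, 25.6% lower and 26.3% higher.

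**Figure D1:**
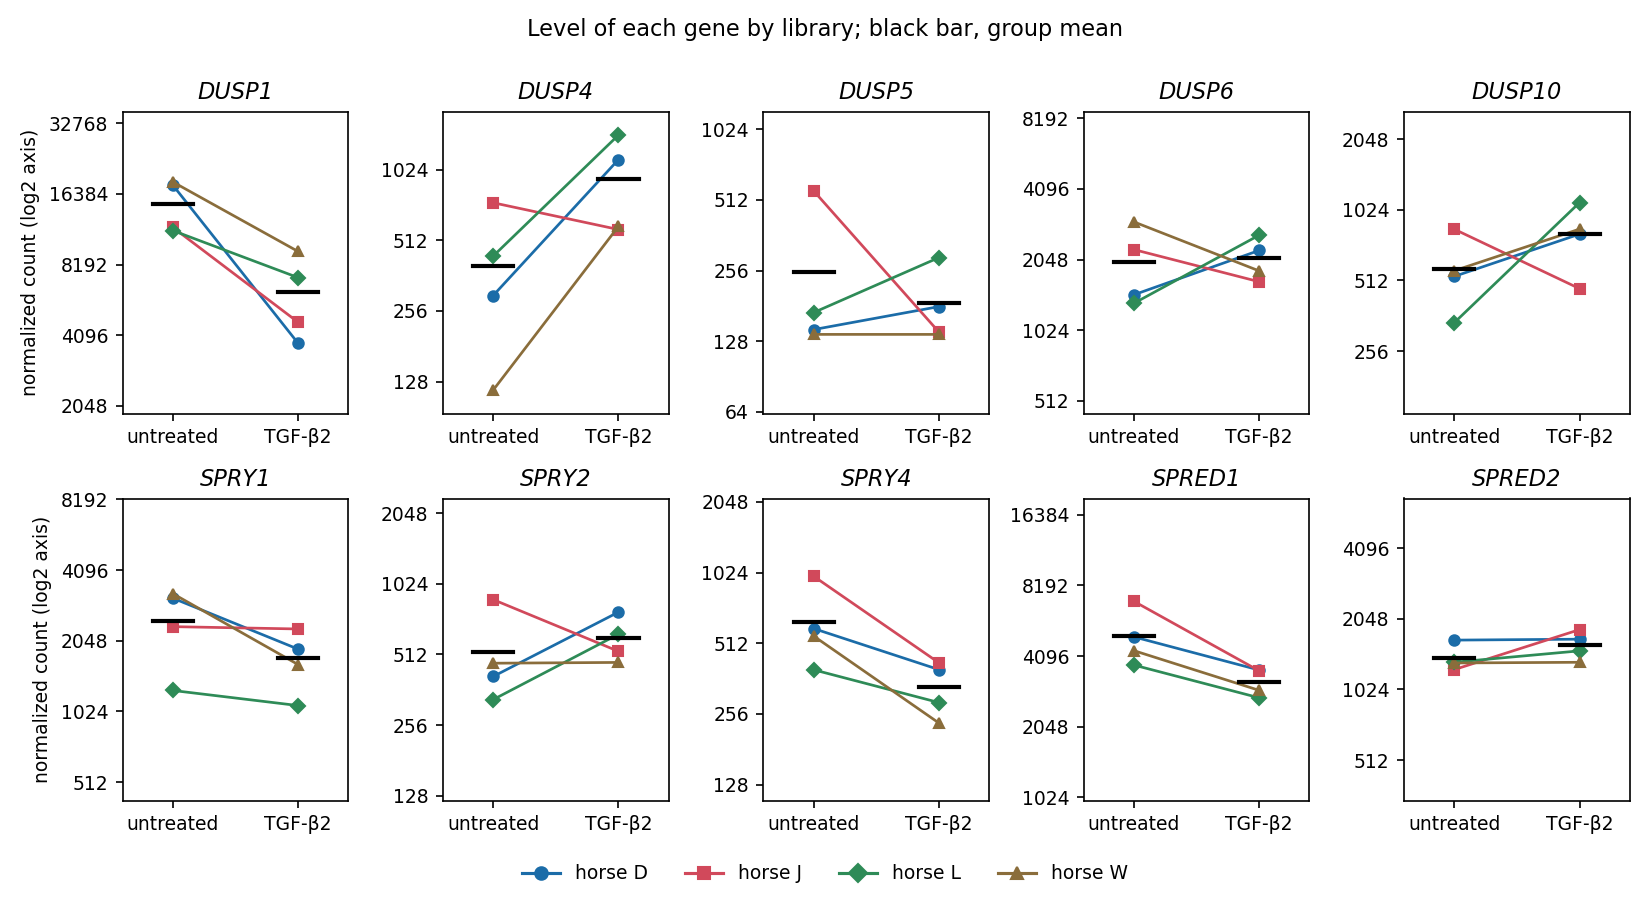
Normalized counts (log2 axis) of the 10 genes in the 8 libraries, with untreated cells on the left and TGF-β2-treated cells on the right of each panel; lines join libraries of the same horse and black bars are group means (n = 4). All 4 lines fall for DUSP1, SPRY1, SPRY4 and SPRED1, and the line of horse J runs against those of horses D and L for DUSP4, DUSP5, DUSP6, DUSP10 and SPRY2.

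DUSP1 encodes a nuclear phosphatase that acts on p38, JNK and ERK and is transcribed within minutes of stimulation. In untreated cells DUSP1 stood at 17869 normalized counts in horse D, 11802 in J, 11438 in L and 18430.0 in W. In treated cells of the same horses it stood at 3788, 4656, 7211 and 9318. Each treated library lay below each untreated one, a separation that 27.8% of all tested genes showed in one direction or the other. The mean fell from 14885 ± 3779.7 (SD, n = 4) to 6243 ± 2513. On the log2 scale the change was -1.31 (standard error 0.30, 95% interval -2.0 to -0.61), or 2.47-fold lower. This passed the test in both fits (limma, adjusted p = 0.0181 without and 0.0175 with the block). Within horses the change was largest in D, where DUSP1 fell by 2.24 on the log2 scale, and smallest in L, where it fell by 0.67. Without horse D it stood at -0.997 and was not called (limma, adjusted p = 0.109, or 0.0358 with the block). Without horse W it was called in the fit without the block and lost in the blocked fit (limma, adjusted p = 0.0424 and 0.0682).

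DUSP4 encodes a nuclear phosphatase of ERK and JNK, closely related to DUSP1. Its untreated levels differed more between horses than those of any of the other 9 genes, with 298 normalized counts in D, 739 in J, 438 in L and 118 in W. The treated libraries held 1129, 568, 1436 and 586. DUSP4 was thus higher after treatment in D, L and W, by 1.92, 1.71 and 2.31 on the log2 scale, and lower in J by a difference of -0.38. The untreated mean was 398 ± 262.5 (SD, n = 4) and the treated mean 929.9 ± 426, with a log2 fold change at 1.39 (standard error 0.56). It did not pass the test in either fit (limma, adjusted p = 0.110, or 0.0668 with the block). DESeq2 on the recovered reads with a term for the horse called it higher (adjusted p = 0.00529), one of 2 calls among the 10 genes there, against 15.7% of all tested genes. Without horse J DUSP4 was called higher at 1.98 (limma, adjusted p = 0.0412, or 0.00160 with the block), and 2 of the 10 genes were called, against 12.7% of all tested genes, or 16.4% with the block.

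DUSP5, a nuclear phosphatase specific for ERK, was set apart by 1 library. Untreated cells of horse J held 560.2 normalized counts, against 144 in D, 169.6 in L and 137 in W. In treated cells the 4 levels were 179.9 in D, 140.2 in J, 291 in L and 137 in W. The treated library of horse J was therefore in the range of the others, and in horse W the change was -0.00011 on the log2 scale. The log2 fold change was -0.22 (95% interval -1.31 to 0.87, adjusted p from limma 0.778). Without horse J it was 0.37, and it did not pass the test there (adjusted p from limma 0.409).

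DUSP6 encodes a cytoplasmic phosphatase specific for ERK. Untreated cells held 1449.6 normalized counts in D, 2257 in J, 1333 in L and 2962 in W. The treated libraries held 2239, 1647, 2602 and 1831. DUSP6 was higher in D and L and lower in J and W, and the groups overlapped throughout. The untreated mean was 2000.5 ± 761 (SD, n = 4) and the treated mean 2079.6 ± 427, with a log2 fold change at 0.11. Its 95% interval ran from -0.51 to 0.73 (adjusted p from limma 0.808), and with the block from -0.65 to 0.87. Both intervals held changes in either direction and none beyond 1.

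DUSP10 encodes a phosphatase that prefers p38 and JNK over ERK. Its untreated levels were 532 normalized counts in D, 846 in J, 338 in L and 563 in W, and its treated levels 806, 472, 1099 and 847. It was higher after treatment in D, L and W and lower in J, as DUSP4 was, and the groups overlapped. The log2 fold change was 0.51 (95% interval -0.24 to 1.26, adjusted p from limma 0.298). Without horse J it was 0.96, short of the fold change threshold (adjusted p from limma 0.0287, or 0.0351 with the block).

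SPRY1, SPRY2 and SPRY4 encode Sprouty proteins, which are induced by FGF and other ligands and damp the signal between the receptor and RAF. SPRY4 had 592 normalized counts in D, 988 in J, 395 in L and 549.9 in W without treatment. With TGF-β2 it had 395, 423, 286 and 234. SPRY4 was lower in every horse, by log2 differences from -1.23 to -0.46. The untreated mean was 631 ± 253 (SD, n = 4) and the treated mean 335 ± 89.3. The groups overlapped, since the lowest untreated library, that of L at 394.8, lay below the treated libraries of D at 395.4 and J. Its log2 fold change stood at -0.87 (standard error 0.30, limma adjusted p = 0.0718, or 0.0200 in the blocked fit). SPRY4 was called in neither fit, and in the blocked fit it was the fold change that was short of the threshold. Without horse L the blocked fit called it lower, at -1.01 (limma, adjusted p = 0.0312).

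SPRY1 had 3108 normalized counts in D, 2350.4 in J, 1257 in L and 3249.7 in W in untreated cells, and 1885, 2297, 1084 and 1621 in treated cells. The level in L was the lowest of its group with and without treatment. SPRY1 was lower in every horse, but by log2 differences that ran from -1.003 in W to -0.033 in J. The log2 fold change of -0.49 had a 95% interval of -1.26 to 0.28 (adjusted p from limma 0.331, and 0.0889 with the block).

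SPRY2 had 412 normalized counts in D, 877 in J, 329 in L and 469.8 in W without treatment and 775, 528, 624 and 473 with it. It was higher in D and L, by 0.91 and 0.92 on the log2 scale, lower in J, and 0.01 higher in W. The log2 fold change was 0.28 (95% interval -0.41 to 0.97, adjusted p from limma 0.555).

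SPRED1 and SPRED2 encode the Sprouty-related proteins that recruit neurofibromin. SPRED1 had 4943 normalized counts in D, 7005 in J, 3749 in L and 4318 in W in untreated cells. The treated libraries held 3569.7, 3541, 2719 and 2925, each below every untreated library. The untreated mean was 5004 ± 1420.2 (SD, n = 4) and the treated mean 3189 ± 432, and the log2 change was -0.98 in J and from -0.56 to -0.46 in the others. Its log2 fold change stood at -0.62 (standard error 0.20, limma adjusted p = 0.0528, or 0.0144 in the blocked fit). At 1.54-fold lower, SPRED1 was short of the fold change threshold in both fits. By limma with the horse as a block, DUSP1, SPRY4 and SPRED1 were the 3 genes with an adjusted p under 0.05 at any fold. Of the 10 genes no other passed, and of all tested genes 30.9% did. By limma without the block DUSP1 was the only one, against 22.8%. DESeq2 without the block gave SPRY4 and SPRED1 an adjusted p under 0.05 as well (0.0228 and 0.0173), short of the fold change threshold.

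SPRED2 varied least between untreated libraries. It had 1662, 1245, 1338 and 1328 normalized counts in untreated cells of D, J, L and W, and 1677, 1842, 1496 and 1337 in treated cells. It was higher in every horse, but in D and W by 0.01 on the log2 scale and in J by 0.57. The log2 fold change was 0.19 (95% interval -0.12 to 0.50, adjusted p from limma 0.362).

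**Figure D2:**
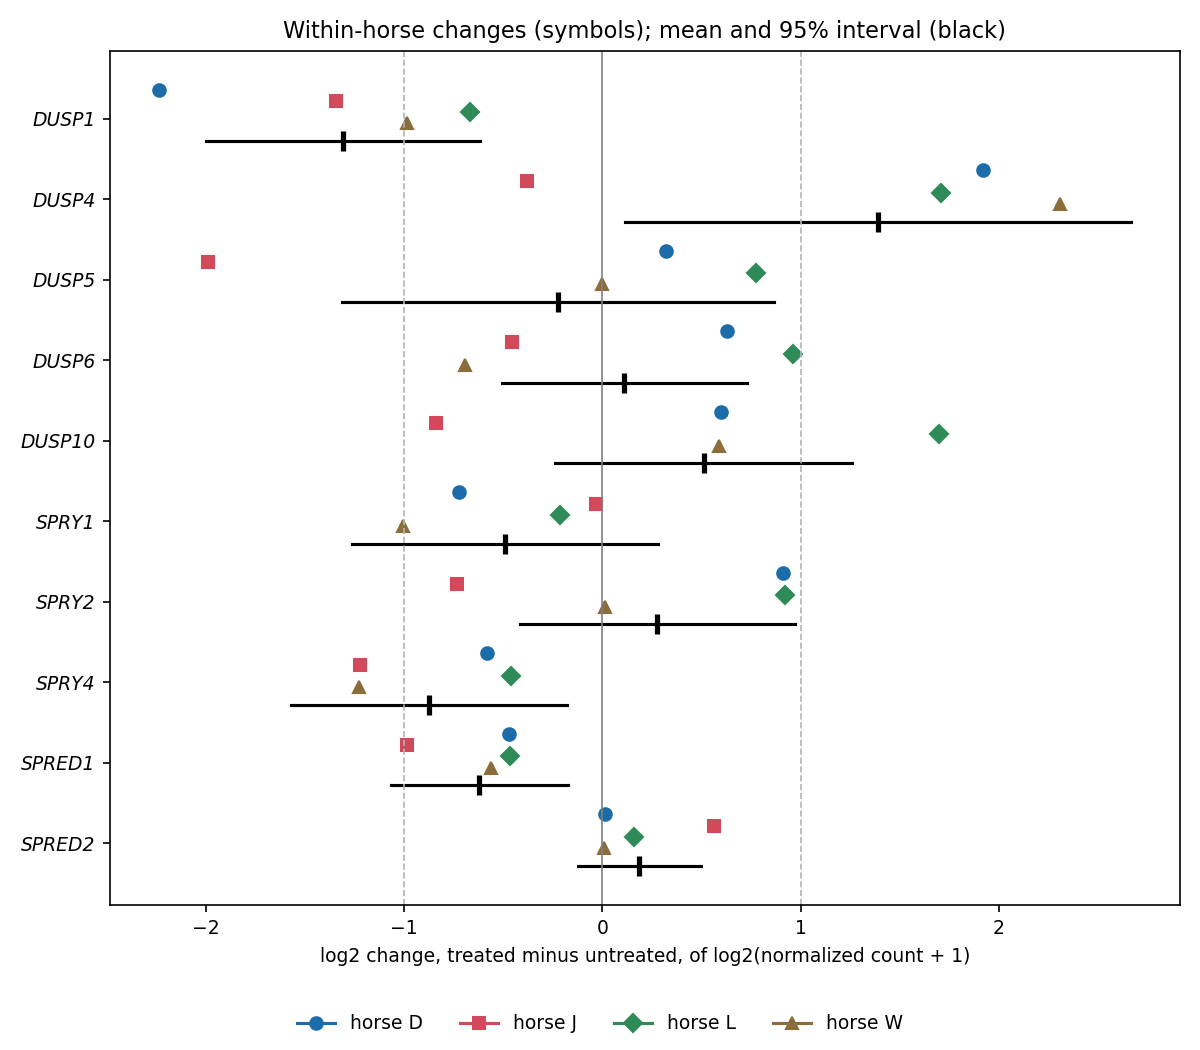
Difference between the treated and the untreated library of each horse on the log2(normalized count + 1) scale (symbols). Black marks are the difference between the group means and its 95% interval from limma without a horse term, which does not pair the libraries. Dashed lines mark a change of 1 in either direction. The black intervals of DUSP1, DUSP4, SPRY4 and SPRED1 do not include 0 before adjustment for the number of genes. With the horse as a block that of SPRY1, from -0.94 to -0.047, does not include 0 either. At least 22.8% of all tested genes have such an interval, or 30.9% with the block, the shares with an adjusted p under 0.05. Horse J has the lowest value for DUSP4, DUSP5, DUSP10, SPRY2 and SPRED1 and the highest for SPRY1 and SPRED2.

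The size of these changes depended on the scaling of the libraries. With libraries set to equal totals, the median log2 fold change of all tested genes was -0.30, against 0.0055 under the deposited normalization. Of the calls 27.6% were higher, against 48.8%. The 10 genes moved with the median. On that scale SPRY4, at -1.18, was called lower beside DUSP1, at -1.62, so that 2 of 10 were called, against 14.3% of all tested genes, or 17.0% with the block. DUSP6, SPRY2 and SPRED2 turned to -0.20, -0.033 and -0.12.

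The untreated library of horse J was the highest of the 4 untreated ones for 6 of the 10 genes, DUSP4, DUSP5, DUSP10, SPRY2, SPRY4 and SPRED1, and over all tested genes for 35.0%. After treatment its library was the highest for 3, SPRY1, SPRY4 and SPRED2, against 28.1% of all tested genes. In J, 9 of the 10 genes were lower after treatment, SPRED2 being the exception, whereas 4 were lower in D, 4 in L and 6 in W. Of all tested genes 50.1% were lower in J, 49.9% in D, 49.3% in L and 50.6% in W. DUSP4, DUSP5, DUSP6, DUSP10 and SPRY2 were higher in D and L and lower in J, a pattern shown by 10.9% of all tested genes. Each horse gave 1 library a condition, so a difference between horses was not tested.

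The summed level of leukocyte markers was also highest in that library. Of 7 leukocyte markers 6 had a row, and their summed level ranged from 665 to 2873 normalized counts in untreated and from 528 to 864 in treated libraries, with 2873 in the untreated library of J. PTPRC, which encodes CD45, stood there at 109.7 and in the other untreated libraries at 1.74 to 41.5. CD68, a macrophage marker, stood at 2437 against 451 to 739.7. CD3E, a T cell marker, stood at 112, and at 16.2 in the untreated library of W. The other 6 libraries held no read of CD3E, which allows up to 3 reads each. CSF1R, another macrophage marker, was lowest there of the untreated libraries, at 1.35. Most of the sum in that library was CD68. Whether these markers have a part in the levels of the 10 genes was not tested. Without that 1 library the log2 fold change of DUSP1 was -1.41 and that of DUSP4 1.78, and both were called (limma, adjusted p = 0.0193 and 0.0371), 2 of the 10 genes against 12.8% of all tested genes, or 16.3% with the block.

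The spread between horses was smaller with treatment for 8 of the 10 genes, and for 65.9% of all tested genes. For DUSP4 the highest untreated library held 6.28 times the level of the lowest and the highest treated library 2.53 times. For SPRED1 these ratios were 1.87 and 1.31. DUSP1 went the other way, from 1.61 to 2.46, and SPRED2 had 1.33 and 1.38.

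The balance between relatives was read from the ratio of their normalized counts within a library. The ratio does not depend on scaling, and since transcripts differ in length only its change between libraries is compared, not whether it is above or below 1. All 14 pairs within the 3 families were formed after the values had been seen, and they are given without a test. In 6 of the 14 pairs the treated and untreated ratios did not overlap, and among all pairs of tested genes this held for 28.1%. In 9 of the 14 the ratio moved the same way in all 4 horses, against 52.7% of all pairs. The pairs share genes, and 3 of the 6 contain DUSP1. The ratio of SPRY2 to SPRY4 was 0.697, 0.887, 0.833 and 0.854 in untreated cells of D, J, L and W, and 1.96, 1.25, 2.18 and 2.02 in treated cells. It was thus higher after treatment in every horse, by 0.49 to 1.49 on the log2 scale. The ratio of SPRED1 to SPRED2 ranged from 2.802 to 5.63 without treatment, with the highest value in J, and from 1.82 to 2.19 with it. The ratio of DUSP4 to DUSP5 ranged from 0.859 to 2.58 in untreated and from 4.05 to 6.28 in treated libraries. In horse J, where DUSP4 itself was lower after treatment, this ratio still went from 1.32 to 4.05.

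DUSP1 was also lower relative to DUSP4, DUSP6 and DUSP10 after treatment in every horse. Relative to DUSP5 it was lower in D, L and W and higher in J, where the ratio went from 21.1 to 33.2, and the groups overlapped. The ratio of DUSP1 to DUSP4 was 60.0 in D, 15.96 in J, 26.1 in L and 157 in W without treatment, and 3.35, 8.19, 5.02 and 15.89 with it, so that the highest treated and the lowest untreated ratio nearly met. The ratio of DUSP1 to DUSP6 ranged from 5.23 to 12.3 in untreated and from 1.69 to 5.09 in treated libraries. That of DUSP1 to DUSP10 ranged from 13.96 to 33.8 without treatment and from 4.70 to 11.001 with it.

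**Figure D3:**
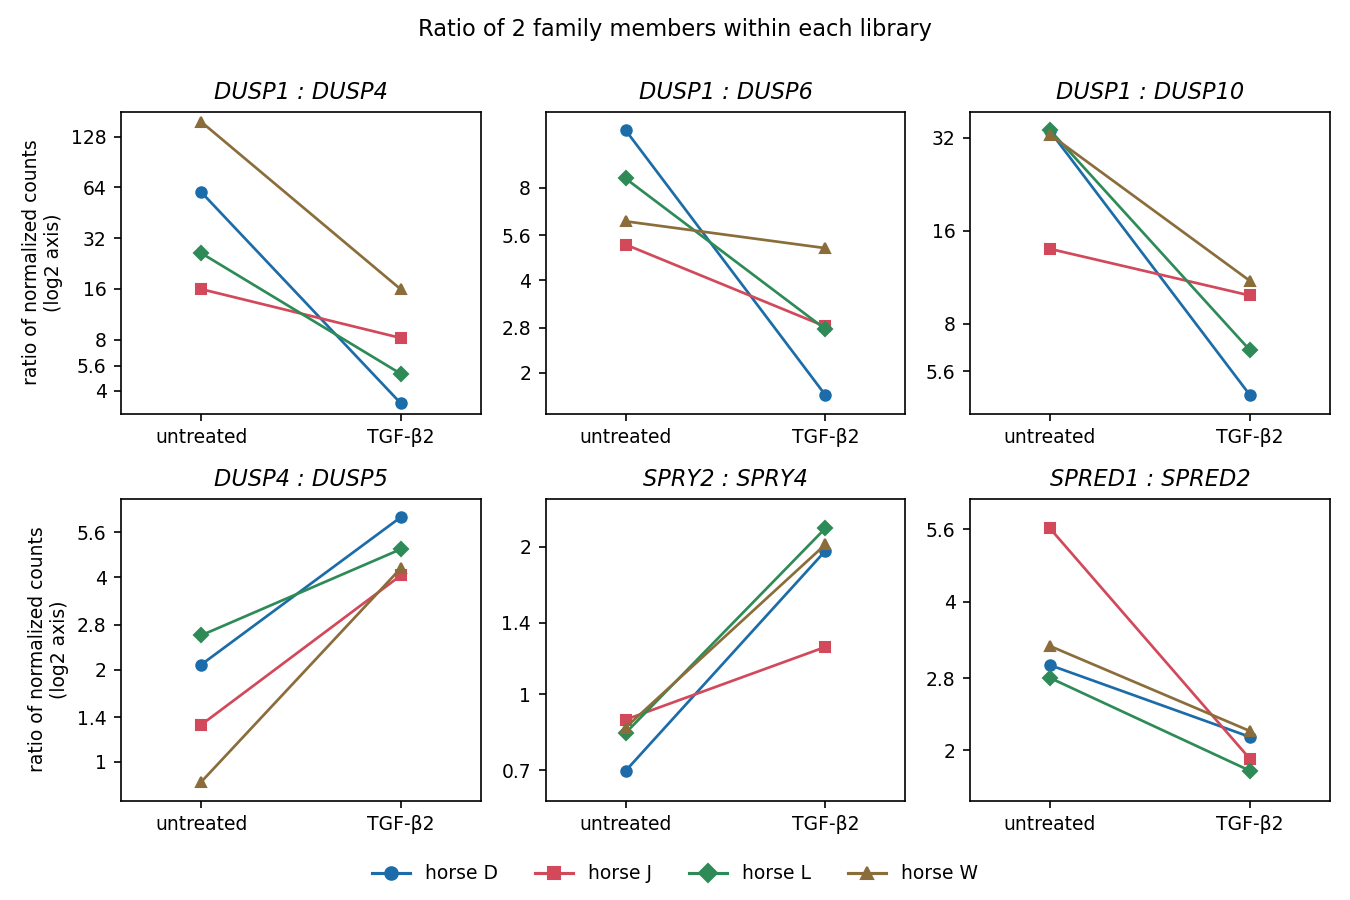
Ratio of the normalized counts of 2 relatives within each library (log2 axis), for the 6 of 14 pairs whose untreated and treated ratios did not overlap; lines join libraries of the same horse. All 4 lines run the same way in each panel, and the 4 treated ratios of SPRY2 to SPRY4, from 1.25 to 2.18, lie above the untreated ones, from 0.697 to 0.887.

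The remaining genes of these pathways were taken from 6 lists that hold none of the 10 genes. Of 96 listed genes 92 had a row and 90 were tested. Of these 5 were called higher and 5 lower, and with the horse as a block 7 and 7, as 11.5% and 14.1% of all tested genes were called. Without horse D or without horse W, 4 of the list genes were called by limma without the block. Of all tested genes 718 and 795 were called there. Under total scaling 3 were called higher and 12 lower, and 4 and 15 with the block. Over all tested genes that scaling gave 587 higher and 1538 lower, and 697 and 1832 with the block. The median log2 fold change of the 90 genes was 0.0079.

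Among the other MAP kinase phosphatases and Sprouty and SPRED relatives, 0 of the 5 tested were called by limma without the block, 2 of the 7 being too low to test. At an unadjusted p under 0.05 there were 2, DUSP8 and SPRED3, and DESeq2 called 1 and edgeR 0. At least 22.8% of all tested genes were under that unadjusted p, the share with an adjusted p under 0.05. SPRED3 had an adjusted p under 0.05, at 0.0476, with a log2 fold change of 0.49. DUSP8, a phosphatase of JNK and p38, had 238 normalized counts in D, 84.2 in J, 351 in L and 199.9 in W without treatment and 409, 378, 562 and 663 with it. It was higher in all 4 horses, at a log2 fold change of 1.33. With all 8 libraries limma called it higher with the block and not without it (adjusted p = 0.0222 and 0.0510). DESeq2 without the block called it as well (adjusted p = 0.0163). Without horse J limma called it in both fits (adjusted p = 0.0348, or 0.0240 with the block). The 2 genes too low to test were DUSP2 and DUSP9, with at most 19.5 and 31.6 normalized counts. None of the 8 tested small or atypical dual-specificity phosphatases was called by limma, with or without the block, nor by DESeq2 or edgeR. At an unadjusted p under 0.05 there was 1, DUSP14 (log2 fold change 0.39), and the 8 log2 fold changes ran from -0.52 in DUSP22 to 0.43 in DUSP19.

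Of 16 genes listed as other inhibitors of receptor, RAS or ERK signalling, 1 was called, RASAL2, a GTPase-activating protein of RAS. It rose from a range of 992 to 2075 normalized counts in untreated libraries to 2279.7 to 4048 in treated ones, by 1.14 on the log2 scale (limma, adjusted p = 0.0158). IL17RD, which encodes the FGF antagonist SEF, had a log2 fold change of -1.01, was lower in all 4 horses and was called lower in the blocked fit alone (limma, adjusted p = 0.163 without and 0.0332 with the block). Under total scaling RASAL2 was at 0.83 and not called. The other 3 with an adjusted p under 0.05 were short of the fold change threshold. The GTPase-activating proteins RASA2 and RASA1 stood at -0.87 and 0.38 (limma, adjusted p = 0.00613 and 0.0357), and SPSB1 at 0.81 (0.0393).

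In the core of the cascade, from the FGF receptors to ERK, 1 of 24 tested genes was called. FGFR3 fell from 341 to 3003 normalized counts in untreated libraries to 124 to 184 in treated ones, a log2 fold change of -3.08 (limma, adjusted p = 0.0131). FGFR1 had a log2 fold change of -0.33 (adjusted p from limma 0.454). The other 4 with an adjusted p under 0.05 were short of the fold change threshold. MAPK3, which encodes ERK1, and KSR1, a scaffold of the cascade, stood at -0.68 and -0.89 (limma, adjusted p = 0.00343 and 0.0192). HRAS and MAP2K1, which encodes MEK1, stood at 0.65 and 0.56 (limma, adjusted p = 0.0150 and 0.0408) and were higher in all 4 horses.

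Of 15 transcripts known to follow ERK activity, 3 were called higher and 2 lower. HBEGF, an EGF receptor ligand, rose with a log2 fold change of 2.90, PLAUR, the urokinase receptor, with 1.49 and LIF, a cytokine of the IL-6 family, with 1.38 (limma, adjusted p = 0.00189, 0.00808 and 0.0350). EGR1, an immediate-early transcription factor, fell with a log2 fold change of -2.44 and ETV1, an ETS factor, with -1.33 (limma, adjusted p = 0.00918 and 0.0219). Without horse J ETV1 was at -0.92 and not called. With all 8 libraries LIF was called neither by edgeR (adjusted p = 0.0591) nor under total scaling (limma, adjusted p = 0.0726). EGR1 ranged from 3749 to 11505 normalized counts in untreated libraries, where it was lowest in J, and from 624 to 2035 in treated ones. The related ETS factors ETV4 and ETV5 stood at log2 fold changes of 1.06 and -0.24. Neither was called without the block, and ETV4 was called higher with it (limma, adjusted p = 0.303 without and 0.0277 with it).

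Of 22 tested genes of the p38 and JNK cascades, 1 was called higher and 2 lower. GADD45B, an activator of the p38 cascade induced by TGF-β, rose from 412 to 925 normalized counts in untreated libraries to 1519.8 to 1724 in treated ones (log2 fold change 1.35, limma, adjusted p = 0.00530). JUN, the substrate of JNK, fell with a log2 fold change of -1.28, and MAPK12, which encodes the p38 isoform p38γ, with -1.19 (limma, adjusted p = 0.00184 and 0.0157). Without horse J MAPK12 was at -0.92 and not called. Of the 10 called list genes, HBEGF and JUN were called with any 1 horse left out, with and without the block, and each of the other 8 lost its call in at least 1 of these fits. MAP2K6, a kinase that activates p38, was lower in all 4 horses, at a log2 fold change of -1.19, and was called in the blocked fit alone (limma, adjusted p = 0.116 without and 0.00520 with the block).

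**Figure D4:**
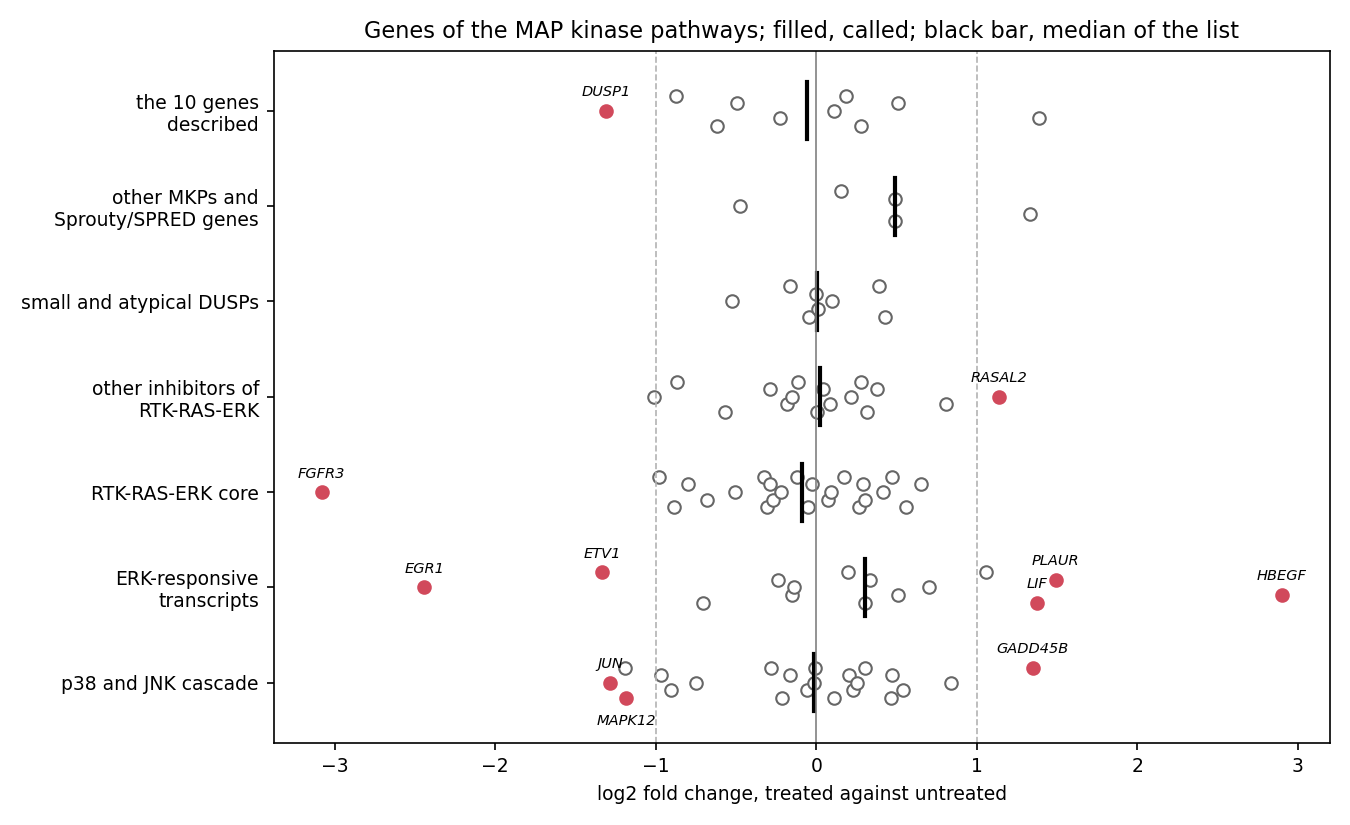
Log2 fold change (treated against untreated, limma without a horse term) of the 10 genes and of the tested genes of the 6 lists, 1 circle a gene; filled circles were called and carry the gene's name, black bars are medians and dashed lines mark a change of 1. Of the 10 genes 1 circle is filled, DUSP1, and in the 6 lists 10 are filled, 5 on either side of 0.

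Genes with the pattern most like DUSP6 and SPRY4 over the 8 libraries were sought among all tested genes, by Pearson's r of log2(normalized count + 1), as a description with no p. For DUSP6 they were ABRAXAS2, CCDC14 and RNF144B, with r of 0.958, 0.900 and 0.873. The log2 fold changes of these 3 genes ran from 0.019 to 0.12, and none was called. For SPRY4 they were B3GALT4, CRNKL1 and ANXA5, with r of 0.996, 0.988 and 0.986, all 3 with negative log2 fold changes, from -0.78 to -0.28, that were not called. The 8 libraries come from 4 horses, and these are the highest values of r over all tested genes other than the 10.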

How the data were processed

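RNA of 4 untreated and 4 TGF-β2-treated BM-MSC cultures, paired by horse, was poly(A)-selected and sequenced. Per the submitters' processing notes and the study's methods, the authors used Trimmomatic 0.36 for trimming, STAR 2.5.2b for alignment to EquCab 3.0 and featureCounts (Subread 1.5.2) to count unique hits, and normalized with DESeq2. Whether strand was used in counting is not given in the sources used here. The deposited values are a signal, gene counts divided by 1 size factor per library. The table held 1 row without a gene name, and this row took 0.0281% to 0.0531% of a library and was left out.

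Each value was divided by the library's value of 1 read. Within a tolerance of 0.01 reads, 100.0% of the values were whole, and these recovered reads gave depths and count tests. Depth speaks to counting error only, since PCR copies of 1 molecule cannot be told apart here.

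The test was limma 3.58.1 with a trended prior, under R 4.3.3. Its input was log2(normalized count + 1) of the genes that reached 10 normalized counts in 4 or more libraries. The methods name no donor term, so the model had none. Libraries of 1 horse, which come from the same animal, deviated together (mean correlation of deviations 0.480, range 0.386 to 0.609, against -0.159 between horses). A second fit had a term (block) for the horse and is quoted where it changes a call. Alternatives were pseudocounts of 0.5 and 5, other filters, scalings and thresholds, no trend, DESeq2 1.42.0 and edgeR 4.0.16 on recovered reads, and each horse left out. Procedures were tested on simulated data.

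The 10 genes, the lists and the markers were chosen with earlier results of these data known. Named are all 10 genes, the called genes of each list (at most 6 by size of change), the 3 genes most like DUSP6 and SPRY4, and the markers. List genes named though not called without the block were chosen after their values were seen. No coordinates are given, since the RefSeq table used for names (TB-T2T) is of another assembly. It matched all 10 symbols. Values of some listed genes are not reported here.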

Additional observations from a re-analysis of the deposited data

Results flagged for a closer look

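In groups of 4 libraries, a value was set apart when its gap to the nearest other library as a share of the group's range exceeded the 95% critical value of Dixon's test. Of 48 groups examined for the 10 genes and the list genes called with or without the block, 2 held such a library, and chance alone gives about 1 in 20. DUSP5 stood at 560.2 normalized counts in the untreated library of horse J, a gap of 0.923 of the range. IL17RD stood at 4089 normalized counts in the untreated library of horse D, a gap of 0.881 of the range, and at 1056 to 1415 in the other untreated libraries.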

How the results depend on the processing

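Of the 10 genes, 1 was called, of all genes 1709 and of the list genes 10. With the horse as a replicate block these counts were 1, 2108 and 14. They were 2, 2125 and 15 under total scaling, and 2, 2529 and 19 under total scaling with the block, where SPRY4 joined DUSP1. DESeq2 with the block called 2 of the 10, DUSP1 and DUSP4. An adjusted p under 0.01 gave 0 (limma, with 4 of the 10 under an unadjusted p of 0.05), 885 and 5 calls, and no fold change threshold 1, 3403 and 22. At least 22.8% of all tested genes were under that unadjusted p, the share with an adjusted p under 0.05. With each horse left out in turn, the 10 genes gave 0 to 2 calls in either fit. All genes gave 718 (without D) to 1899, and 1080 (without W) to 2442 with the block. List genes gave 4 (without D or W) to 13, and 4 (without W) or 6 (without D) to 16 with the block. Without the untreated library of J, chosen after seeing the data, 2 of the 10 and 1911 genes were called, and with the block 2, 2437 and 16 list genes. DUSP5 changed sign without horse J (0.37, range over horses -0.56 to 0.37) and without the untreated library of J (0.25, and 0.37 with the block). DUSP6 changed sign under total scaling (-0.20) and without D (-0.062) or L (-0.17, range over horses -0.17 to 0.38). SPRY2 (-0.033) and SPRED2 (-0.12) changed sign under total scaling, with and without the block. That scaling moved all genes alike. The cause of the other changes was not tested. Other pseudocounts, filters, TMM scaling, no trend, edgeR and DESeq2 without the block left the direction and the call of each of the 10 genes as they were.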
